A study of Mus musculus with 10 samples.

Results

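Chemokine and lipid receptors that steer T cell traffic, and a transcription factor that controls one of them, are described here across mouse CD8 T cells kept in low glucose with or without acetate. The genes are Cxcr3, Cxcr4, Cxcr6, Ccr2, Ccr7, S1pr1 and Klf2. They were taken by name, with earlier results of these data known, and each matched 1 of the 53465 genes in the count files, so 7 of 7 were found. All 7 were among the 13182 genes tested after the filter on low counts.

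Chemokine receptors are G protein-coupled receptors that turn a gradient of a chemokine into directed movement, mostly through inhibitory G proteins. On activated CD8 T cells, CXCR3, CXCR6 and CCR2 guide entry into inflamed or peripheral tissue, CCR7 guides entry into lymph nodes, and CXCR4 reads CXCL12, a chemokine of bone marrow and lymphoid stroma. S1PR1 senses sphingosine-1-phosphate (S1P) and lets T cells leave lymphoid organs, and the transcription factor KLF2 sustains its transcription. Stimulation through the T cell receptor is known to lower both S1PR1 and KLF2.

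The cells were OT-I CD8 T cells, which carry a transgenic receptor for an ovalbumin peptide, from spleen and peripheral lymph nodes of C57BL/6 mice. They were activated for 3 days with peptide at 100 ng/ml and IL-2 at 100 U/ml in 25 mM glucose, and then kept in 1 mM glucose. The group labelled d5 (n = 2) had 24 h of glucose restriction and the group labelled d9 (n = 3) had 120 h. In the groups d5 acetate (n = 2) and d9 acetate (n = 3), 5 mM sodium acetate was present for the final day. All 4 groups were restimulated for 4 h with PMA and ionomycin, which bypass the T cell receptor, so no value below is from resting cells. The stated durations do not add up to the day names, and the labels do not explain this. The labels give no age of the mice and do not say whether replicates came from separate cultures or animals. The p-values therefore speak only of the spread among the sequenced samples, and this spread may be technical.

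In GRCm38 with the GENCODE M21 annotation, all 7 genes are protein coding. Cxcr3 (ENSMUSG00000050232) lies on the minus strand at chrX:101731535-101734269 and Cxcr4 (ENSMUSG00000045382) on the minus strand at chr1:128588199-128592293. Cxcr6 (ENSMUSG00000048521) and Ccr2 (ENSMUSG00000049103) lie on the plus strand of chromosome 9, at chr9:123806475-123811760 and chr9:124101950-124113557. Ccr7 (ENSMUSG00000037944) lies on the minus strand at chr11:99144196-99155077, S1pr1 (ENSMUSG00000045092) on the minus strand at chr3:115710433-115715072 and Klf2 (ENSMUSG00000055148) on the plus strand at chr8:72319033-72321656. None shared exon bases with another annotated gene, although Cxcr6 sits inside the span of Fyco1 on the other strand. Of the 6758 windows of 50 bases in Ccr2 exons, 1.91% also occur in another gene. The other 6 members shared no such window.

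Promoter sequence of 4 members, which include the member with the widest fall, Cxcr3, and the member with the widest relative spread within 3 of the 4 groups, Cxcr4, is shown so that the control regions behind the values can be read. Each run is the part of the RefSeq promoter table (GRCm38.p6, up to 250 bases before the start) that lies upstream of both the RefSeq and the GENCODE start. The table held 5 of the 7 members, and 4 of these had at least 100 such bases. Capitals mark matches to motifs searched on both strands: CACCC, the box bound by KLF factors, TGTTTAC, a FOXO site, TCACACC, a T-box site, and ACGTG and GCGTG, the core of a hypoxia response element. The hypoxia cores were added after the values were seen. No searched motif contains or overlaps another in these windows.
Cxcr3, minus strand, chrX:101734270-101734397: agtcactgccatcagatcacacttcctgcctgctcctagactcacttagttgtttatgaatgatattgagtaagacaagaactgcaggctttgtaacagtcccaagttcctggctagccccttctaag
Cxcr4, minus strand, chr1:128592300-128592549: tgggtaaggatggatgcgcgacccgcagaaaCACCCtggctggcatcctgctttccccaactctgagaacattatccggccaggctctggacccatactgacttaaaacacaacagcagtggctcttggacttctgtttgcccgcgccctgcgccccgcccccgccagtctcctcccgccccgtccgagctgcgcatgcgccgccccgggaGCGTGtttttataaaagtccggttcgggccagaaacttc
Cxcr6, plus strand, chr9:123806227-123806474: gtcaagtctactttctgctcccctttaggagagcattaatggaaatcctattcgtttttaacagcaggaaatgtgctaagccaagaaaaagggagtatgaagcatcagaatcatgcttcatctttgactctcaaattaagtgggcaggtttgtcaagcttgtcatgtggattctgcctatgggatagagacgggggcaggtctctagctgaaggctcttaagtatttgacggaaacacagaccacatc
Klf2, plus strand, chr8:72318812-72319032: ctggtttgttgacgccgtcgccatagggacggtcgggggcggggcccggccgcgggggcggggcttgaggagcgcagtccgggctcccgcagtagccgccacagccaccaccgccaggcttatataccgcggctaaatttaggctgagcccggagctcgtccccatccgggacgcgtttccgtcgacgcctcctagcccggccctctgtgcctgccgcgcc

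Matches were found in the Cxcr4 window alone of these 4. CACCC stood at bases -219 to -215 and GCGTG at bases -39 to -35 before the start, both on the gene's strand. Of 32851 promoters trimmed to the same length, 52.0% held CACCC and 28.2% held GCGTG, so neither match is rare. The windows were 45.3% G and C in Cxcr3, 43.5% in Cxcr6, 61.2% in Cxcr4 and 71.5% in Klf2. A match is a description of letters and not evidence of a bound factor, and a missing match says only that these letters are not in the window.

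Library depth ran from 16588023 to 17971480 counts at d5 and from 22966098 to 24659226 counts at d9. On the first principal component (66.2% of variance) libraries of the days lay apart. Comparisons of d9 with d5 join longer restriction, a later day and deeper libraries, and these cannot be told apart. All groups were kept in 1 mM glucose, so no group shows a day without restriction. At d9, replicate 1 without acetate and replicate 2 with acetate stood apart from the rest, with ribosomal protein genes at 15.5% and 15.1% of their counts, where the remaining 4 libraries of that day had 11.2% to 12.7%. Values without this pair are given where leaving it out changed a call or moved a fold by over 1.5 times. The 8 CD8 T cell markers summed to 3048 to 3984 CPM (counts per 1e6 counts of the TMM-scaled library) in every library. Markers of other cells were far lower: monocyte and macrophage markers summed to 4.68 to 12.4 CPM, B cell markers to 0.843 to 5.31 CPM and natural killer (NK) cell markers to 1.75 to 26.4 CPM. Of the 5 neutrophil markers, 4 had no count in any library, as had 3 of the 6 dendritic cell markers. The rest of the dendritic cell sum was nearly all Zbtb46, at up to 97.9 CPM. CD4 T cell markers summed to 117 to 169 CPM, nearly all from Zbtb7b, while Cd4 itself stayed at or below 1.70 CPM.

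**Figure D1:**
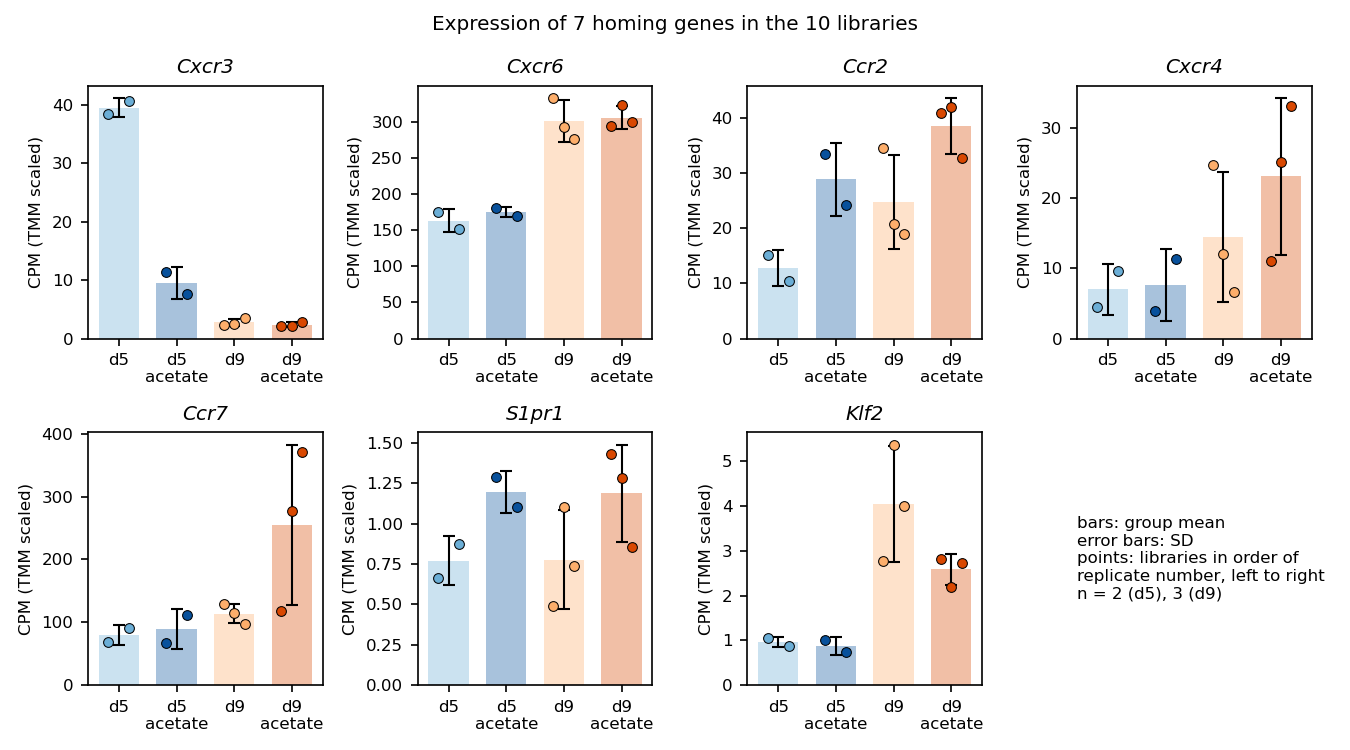
Level of each of the 7 genes in TMM-scaled CPM on linear axes from 0, by group (d5, d5 acetate, d9, d9 acetate); bars are group means, error bars SD and points libraries (n = 2 at d5, 3 at d9). Cxcr3 stands at 38.3 to 40.7 at d5, at 7.63 to 11.4 with acetate and at 2.06 to 3.48 in the 6 libraries of d9, whereas Ccr7 and Cxcr4 spread widely within the d9 acetate group.

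Cxcr3, the receptor for the interferon-induced chemokines CXCL9, CXCL10 and CXCL11, was the member with the widest range, 19.7-fold from the lowest to the highest library. It stood at 38.3 and 40.7 CPM in the d5 libraries and at 11.4 and 7.63 CPM with acetate. It was at 2.33, 2.54 and 3.48 CPM in the d9 libraries and at 2.19, 2.06 and 2.86 CPM in the d9 acetate libraries. The d5 groups did not overlap, and every d9 library lay below every d5 library. With so few libraries such separation is common: at d5, 29.8% of all genes lay wholly higher with acetate and 29.2% wholly lower, and at d9 9.9% and 8.79%. Between days these shares were 29.7% and 33.4% without acetate and 29.1% and 33.4% with it. Behind these levels stood 695 and 696 counts at d5, 204 and 145 with acetate, and 45 to 80 in the libraries of d9. In bulk RNA, fewer cells with the transcript and less transcript per cell cannot be told apart.

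With acetate at d5, Cxcr3 fell 4.15-fold, a log2 fold change of -2.05 ± 0.24 (SE) with a 95% interval of -2.58 to -1.53 (edgeR quasi-likelihood test, Benjamini-Hochberg adjusted p = 0.00826). It was the only member of 7 past the adjusted p threshold of 0.05 in that comparison, in which 1.52% of all genes passed, 0.66% higher and 0.865% lower. With 2 libraries a side the call depended on each of them: leaving out d5 replicate 1, d5 replicate 2, d5 acetate replicate 1 or d5 acetate replicate 2 gave edgeR adjusted p values of 0.0514, 0.100, 0.0515 and 0.0746, with the log2 fold change still at or below -1.79. Over the same d5 comparison the summed monocyte and macrophage markers went from 9.43 to 12.4 CPM down to 4.68 to 7.01 CPM, most of it Cd68, while Lyz2 stayed at or below 0.897 CPM and Csf1r at or below 0.448 CPM. The summed B cell markers went from 1.71 to 1.93 CPM up to 4.204 to 5.31 CPM with Ms4a1 at or below 0.175 CPM, and the summed NK cell markers from 1.75 to 2.21 CPM up to 5.66 to 6.52 CPM with Ncr1 at or below 0.263 CPM. In each of these lists edgeR called 1 of the 2 tested genes. The call was lower among monocyte and macrophage markers and higher among B cell and NK cell markers. A positive log2 fold change was seen in 0 of 2 tested monocyte and macrophage markers, 2 of 2 B cell markers and 1 of 2 NK cell markers. Lyz2, Csf1r, Ms4a1 and Ncr1 are single members of these lists, and other members carried most of the changes in the sums. The dendritic cell sum went from 16.6 to 23.8 CPM up to 28.4 to 30.4 CPM, nearly all Zbtb46, and the CD4 T cell sum from 117 to 131 CPM up to 148 to 162 CPM, nearly all Zbtb7b. The CD8 T cell sum went from 3048 to 3223 CPM up to 3375 to 3576 CPM. Of the 8 CD8 T cell markers edgeR called 1 higher and 0 lower. The part of these markers in the difference was not tested.

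At d9 the acetate difference of Cxcr3 was small and did not pass, at a log2 fold change of -0.23 ± 0.23 (SE, interval -0.73 to 0.27, edgeR adjusted p = 0.683). The difference between the acetate effects of the days was 1.82 ± 0.33 (SE) on the log2 scale, with an interval of 1.10 to 2.54. Adjusted over all genes it did not pass (edgeR quasi-likelihood adjusted p = 0.134), and 0% of genes passed there. It passed with the Wald test of DESeq2 (adjusted p = 4.41e-04), without the filter on low counts (edgeR adjusted p = 8.10e-05) and without the pair of d9 libraries that stood apart (edgeR adjusted p = 0.0223). From d5 to d9, Cxcr3 fell 14.2-fold without acetate (log2 fold change -3.82 ± 0.22 SE, edgeR adjusted p = 2.88e-06) and 4.01-fold with it (-2.00 ± 0.23 SE, edgeR adjusted p = 1.18e-04). The comparisons share libraries: the d5 libraries enter both the acetate comparison at d5 and the comparison of days.

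Cxcr6, the receptor for CXCL16 and a marker of resident and effector T cells in tissue, was the most abundant member per base of exon in all 4 groups. It stood at 174 and 152 CPM at d5, at 180.2 and 169.7 CPM with acetate, at 333, 292 and 277 CPM at d9, and at 294, 323 and 299.7 CPM at d9 with acetate. Acetate and control libraries overlapped at both days, and the whole range over libraries was 2.19-fold. Acetate left a log2 fold change of 0.10 ± 0.13 (SE, interval -0.19 to 0.38, edgeR adjusted p = 0.707) at d5 and of 0.02 ± 0.11 (SE, interval -0.21 to 0.25, edgeR adjusted p = 0.949) at d9. These intervals hold an acetate difference at d9 of at most 0.25 on the log2 scale. Between days Cxcr6 rose 1.84-fold without acetate (edgeR adjusted p = 3.41e-04) and 1.75-fold with acetate (edgeR adjusted p = 5.14e-04), with no overlap between days. Its ligand Cxcl16, at 9.96, 4.32, 7.95 and 10.9 CPM in the means of d5, d5 acetate, d9 and d9 acetate, rose between days with acetate (log2 fold change 1.34, edgeR adjusted p = 0.00285). Of 10 ligands of the member receptors, 8 were matched by name to a gene of the count files. Ccl19 and Ccl21a, which encode ligands of CCR7, were not matched, so nothing is said of their levels. Of the 8, Cxcl16 and Cxcl10 alone had counts enough to test. Neither passed with acetate at d5 or d9 in edgeR (1 and 0 at an unadjusted p under 0.05, 1 and 0 in DESeq2, 0 and 0 in limma-voom). Without acetate the Cxcl16 log2 fold change between days was -0.32 (edgeR adjusted p = 0.330). Exons of Cxcl16 overlap Zmynd15 on the opposite strand, and reads of such pairs are separated only if counting used strand, which no source used here states.

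Ccr2, the receptor for CCL2, stood at 15.1 and 10.5 CPM at d5 and at 33.6 and 24.2 CPM with acetate. At d9 it stood at 34.5, 20.7 and 19.0 CPM, and with acetate at 40.9, 42.1 and 32.8 CPM. The groups did not overlap at d5, and at d9 they overlapped through d9 replicate 1 alone. The log2 fold change with acetate was 1.17 ± 0.30 (SE, interval 0.51 to 1.84) at d5, which did not pass (edgeR adjusted p = 0.0799), and 0.64 ± 0.24 (SE, interval 0.12 to 1.16) at d9 (edgeR adjusted p = 0.241). The d5 difference passed when only the groups compared were fitted (edgeR adjusted p = 0.0149), without the filter on low counts (edgeR adjusted p = 0.0453), with the Wald test of DESeq2 (adjusted p = 0.0064) and without d9 replicate 1 (edgeR adjusted p = 0.0225). Without both d9 libraries that stood apart, the d9 difference was 0.91 (edgeR adjusted p = 0.0477) and the d5 difference passed (edgeR adjusted p = 0.00434). Between days Ccr2 rose 1.93-fold without acetate (edgeR adjusted p = 0.0217), a call lost without d5 replicate 2 (edgeR adjusted p = 0.182). Without the pair of d9 libraries that stood apart its log2 fold change was 0.61 rather than 0.95 and still passed (edgeR adjusted p = 0.0299). With acetate its log2 fold change between days was 0.42 ± 0.27 (SE, edgeR adjusted p = 0.232).

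Ccr7, the receptor for CCL19 and CCL21, stood at 69.1 and 91.5 CPM at d5, at 67.0 and 112 CPM with acetate, and at 129, 114 and 97.8 CPM at d9. In the d9 acetate libraries it stood at 118, 277 and 370.3 CPM. The first of these lay within the range of the d9 controls and the other two lay well above it. The log2 fold change with acetate at d9 was 1.17 ± 0.35 (SE, interval 0.39 to 1.95), the largest of the 7 members there, and it did not pass (edgeR adjusted p = 0.187). The Wald test of DESeq2 called it (adjusted p = 0.0233). None of the 7 members passed in the d9 acetate comparison, where 0.0303% of all genes did, 0.0303% higher and 0% lower. At an unadjusted p under 0.05, edgeR called 3 members there (Ccr2, Ccr7, Klf2) and 2026 of the 13182 genes. After adjustment DESeq2 called 1 member and 337 genes, and limma-voom 0 members and 4 genes.

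Acetate at d5 gave Ccr7 a log2 fold change of 0.16 ± 0.43 (SE, interval -0.79 to 1.11, edgeR adjusted p = 0.868). Every d9 library of either treatment lay above the d5 libraries of the same treatment. Between days, Ccr7 rose 2.85-fold with acetate (log2 fold change 1.51 ± 0.41 SE, edgeR adjusted p = 0.0141). That call was lost without d5 acetate replicate 1 (edgeR adjusted p = 0.127), without the filter on low counts (0.0818) and without the pair of d9 libraries that stood apart (0.128). Without acetate the log2 fold change was 0.50 ± 0.39 (SE, edgeR adjusted p = 0.345).

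Cxcr4, the receptor for CXCL12, had the widest relative spread of the members within 3 of the 4 groups (SD of 48.4% to 67.8% of the mean over the 4), and none of its differences passed. It stood at 4.47 and 9.58 CPM at d5, at 3.98 and 11.3 CPM with acetate, at 24.8, 12.02 and 6.70 CPM at d9, and at 11.1, 25.1 and 33.2 CPM at d9 with acetate. The groups overlapped in all 4 comparisons. The log2 fold change with acetate was 0.13 ± 0.72 (SE, interval -1.47 to 1.73) at d5 and 0.67 ± 0.54 (SE, interval -0.53 to 1.88) at d9, with edgeR adjusted p values of 0.942 and 0.603. Between days it was 1.05 ± 0.65 (SE) without acetate and 1.59 ± 0.65 (SE) with acetate, with edgeR adjusted p values of 0.233 and 0.0738. The last of these passed when only the groups compared were fitted (edgeR adjusted p = 0.0401), without d9 replicate 1 (1.61, edgeR adjusted p = 0.04999) and without d9 acetate replicate 1 (1.93, edgeR adjusted p = 0.0399), and went to 2.55 without d5 acetate replicate 2 (edgeR adjusted p = 0.0656). Single libraries moved the other values too. Without the pair of d9 libraries that stood apart, the acetate difference at d9 was 1.26 and the difference between days without acetate 0.40, and without d9 replicate 1 alone they were 1.31 and 0.44. Without d5 replicate 2 the difference between days without acetate was 1.70, and the acetate difference at d5 was 0.77 without d5 replicate 2 and -0.82 without d5 acetate replicate 2.

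S1pr1, the S1P receptor for exit from lymphoid organs, was the lowest member per base of exon in every group, with 11 to 34 counts in a library. Its levels were 0.662 and 0.876 CPM at d5, 1.29 and 1.10 CPM with acetate, 0.493, 1.10 and 0.740 CPM at d9, and 1.43, 1.28 and 0.853 CPM at d9 with acetate. The acetate libraries lay above the controls at d5 and overlapped them at d9. The log2 fold change with acetate was 0.64 ± 0.43 (SE, interval -0.31 to 1.58, edgeR adjusted p = 0.432) at d5 and 0.60 ± 0.33 (SE, interval -0.12 to 1.33, edgeR adjusted p = 0.422) at d9. Between days it was 0.02 ± 0.40 (SE) without acetate and -0.01 ± 0.36 (SE) with acetate, and the sign of both values flipped under other scalings. At these counts the intervals were wide and do not settle whether S1pr1 differed.

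Klf2, the transcription factor upstream of S1pr1, was low as well, with 14 to 127 counts in a library. It stood at 1.05 and 0.876 CPM at d5, at 1.01 and 0.736 CPM with acetate, at 2.78, 5.38 and 4.00 CPM at d9, and at 2.82, 2.20 and 2.73 CPM at d9 with acetate. Every d9 library lay above every d5 library, and at d9 the acetate libraries overlapped the controls only through d9 replicate 1 and d9 acetate replicate 1. Klf2 rose between days, 4.19-fold without acetate (log2 fold change 2.07 ± 0.33 SE, edgeR adjusted p = 8.75e-04) and 2.96-fold with acetate (1.57 ± 0.34 SE, edgeR adjusted p = 0.0045). Over the same days S1pr1 had the log2 fold changes near 0 given above. The acetate difference of Klf2 was -0.15 ± 0.41 (SE, edgeR adjusted p = 0.875) at d5 and -0.65 ± 0.25 (SE, interval -1.20 to -0.10, edgeR adjusted p = 0.257) at d9.

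**Figure D2:**
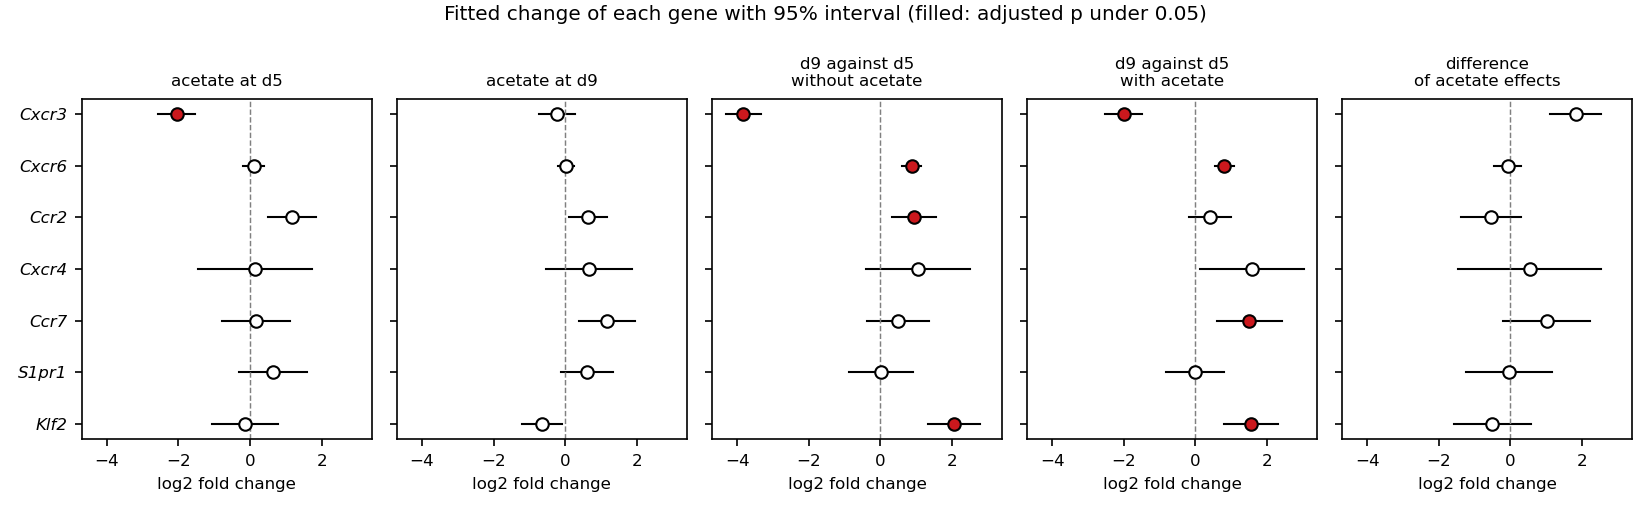
Log2 fold change of each of the 7 genes (points) with its 95% interval (lines) from the edgeR fit, in the acetate comparisons at d5 and d9, in the comparisons of d9 with d5 and in the difference between the acetate effects of the days; filled points passed an adjusted p of 0.05. Cxcr3 lies at -2.05 with acetate at d5 and at -3.82 between days without acetate, while the intervals of S1pr1 cross 0 in all 5 panels.

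Counted over the members, 4 of 7 passed between days without acetate, 3 higher (Cxcr6, Ccr2, Klf2) and 1 lower (Cxcr3), where 37.1% of all genes passed, 15.9% higher and 21.2% lower. With acetate 4 of 7 passed, 3 higher (Cxcr6, Ccr7, Klf2) and 1 lower (Cxcr3), where 41.6% of all genes passed, 18.5% higher and 23.1% lower. Against such shares a count of 4 of 7 is no result particular to these genes. The summed NK cell markers went over the same days from 1.75 to 2.21 CPM to 9.44 to 15.8 CPM without acetate and from 5.66 to 6.52 CPM to 18.9 to 26.4 CPM with it, nearly all from Klrb1c, with Ncr1 at or below 0.263 CPM. The dendritic cell sum, nearly all Zbtb46, went from 16.6 to 23.8 CPM to 64.6 to 68.5 CPM without acetate and from 28.4 to 30.4 CPM to 68.2 to 97.9 CPM with it. The B cell sum went from 1.71 to 1.93 CPM to 1.23 to 1.91 CPM without acetate. With acetate it went from 4.204 to 5.31 CPM to 0.843 to 1.51 CPM. The neutrophil sum was 0 CPM in every d5 library. It was 0.522 to 1.25 CPM at d9 and 0.0853 to 0.550 CPM at d9 with acetate, and no call between days is drawn from it. The CD8 T cell sum went from 3048 to 3223 CPM to 3308 to 3984 CPM without acetate. With acetate it went from 3375 to 3576 CPM to 3334 to 3839 CPM. Of the 8 CD8 T cell markers edgeR called 5 higher and 0 lower without acetate, and 2 higher and 0 lower with it. Of 3 tested CD4 T cell markers 1 was called higher and 1 lower without acetate, and 0 with it. Of 2 tested monocyte and macrophage markers 0 were called. The part of these markers in the differences was not tested. Scaled by library size alone, 32.3% rather than 42.8% of the genes called without acetate were higher at d9, and 33.9% rather than 44.5% with acetate, with the median of all genes at -0.11 on the log2 scale in both. The member calls between days were the same under that scaling. The median log2 fold change over the members was 0.88 without acetate and 0.80 with it, against -0.01 for all genes in both, and with acetate treatment it was 0.13 at d5 and 0.60 at d9, against 0.01 for all genes in both.

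The order of the members was read per length, as CPM per kilobase of exon. At d5 it ran Cxcr6 (84.6 ± 8.18 SD), Ccr7 (40.6 ± 8.01), Cxcr3 (22.8 ± 0.945), Cxcr4 (3.88 ± 2.00), Ccr2 (1.89 ± 0.487), Klf2 (0.521 ± 0.0658) and S1pr1 (0.253 ± 0.0497), n = 2. At d9 it ran Cxcr6 (156 ± 14.98 SD), Ccr7 (57.3 ± 7.75), Cxcr4 (8.03 ± 5.15), Ccr2 (3.66 ± 1.26), Klf2 (2.19 ± 0.704), Cxcr3 (1.61 ± 0.354) and S1pr1 (0.255 ± 0.100), n = 3. Cxcr3 thus went from the third place to the sixth. In the d5 acetate group Cxcr3 (5.50 ± 1.56 SD), Ccr2 (4.28 ± 0.976) and Cxcr4 (4.23 ± 2.87) lay within their spread of each other, as did Klf2 (1.40 ± 0.182) and Cxcr3 (1.37 ± 0.246) in the d9 acetate group. In that last group Ccr7 (129 ± 64.5) lay within its spread of Cxcr6 (158 ± 8.14).

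The genes whose levels ran most alike over the 10 libraries were found by Pearson's r of log2 CPM among 9786 protein-coding genes of sufficient level, as a description. Libraries of a group share their treatment and the days dominate the variance, so high values of r are common. For Cxcr3 they were D030056L22Rik (r = 0.994), Tiam1 (0.984) and Camk2d (0.981). Tiam1, an activator of the small GTPase Rac, had group means of 41.3, 19.8, 7.78 and 6.98 CPM at d5, d5 acetate, d9 and d9 acetate. For Cxcr6 they were Ifitm1 (0.993), Rcsd1 (0.992) and Tsc22d3 (0.992), for Ccr2 they were Trim13 (0.988), Cd244a (0.962) and Atxn7l3b (0.961), and for Klf2 they were Cd37 (0.983), Parp10 (0.983) and Rac2 (0.982). Exons of Parp10 overlap Plec on the same strand. S1pr1 was too low to be compared.

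Cxcr4 ran with Slc16a3 (r = 0.979), Slc2a1 (0.973) and Ankrd37 (0.968), and Ccr7 with Ier3 (0.982), P4ha1 (0.956) and Ndrg2 (0.952). Slc2a1 encodes the glucose transporter GLUT1 and Slc16a3 the lactate exporter MCT4, and both, with P4ha1 and Ankrd37, are textbook targets of hypoxia-inducible factor. Slc16a3 stood at 43.9 and 90.7 CPM at d5, at 57.1 and 116 CPM with acetate, at 192, 117 and 59.9 CPM at d9, and at 103, 232 and 339 CPM at d9 with acetate. Within each of the 4 groups the libraries had the same order for Cxcr4 as for Ccr7, Slc16a3, Slc2a1 and Ankrd37. Ccr7 likewise had the same order as Ier3, P4ha1 and Ndrg2 in 4 of 4 groups. The most alike genes were picked over these same libraries, so their shared order follows in part from that choice and is no separate result. Across the members themselves r was 0.90 for Cxcr4 and Ccr7, -0.92 for Cxcr3 and Cxcr6, 0.87 for Cxcr6 and Klf2 and -0.08 for S1pr1 and Klf2.

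**Figure D3:**
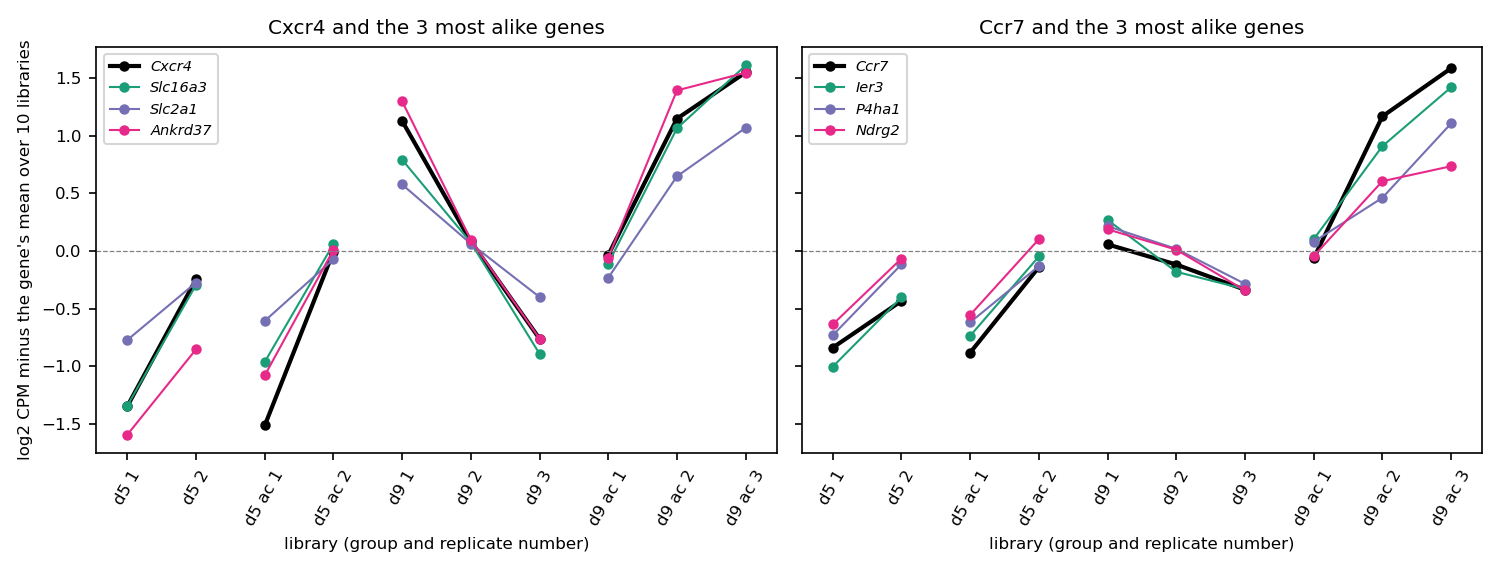
Log2 CPM minus the gene's own mean over the 10 libraries, by library (group and replicate number), for Cxcr4 (left) and Ccr7 (right), each with the 3 genes whose profile was most alike; lines join the libraries of a group and carry no order in time. Cxcr4, Slc16a3, Slc2a1 and Ankrd37 order the replicates the same way in 4 of 4 groups, as do Ccr7, Ier3, P4ha1 and Ndrg2. This follows in part from picking the most alike genes over these same libraries.

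Of the 18 other chemokine receptors listed, 4 were measured well enough to test. The list counts below are read against the shares of all genes called, 1.52% with acetate at d5, 37.1% between days without acetate and 41.6% with it. At most 4 genes per list and comparison are named, so a gene named for 1 comparison of days may have changed in the other too. Ccr4, a receptor of skin homing, rose with acetate at d5 from 1.64 ± 0.174 to 4.65 ± 0.942 CPM (SD, n = 2; log2 fold change 1.50, edgeR adjusted p = 0.0301), and the other 3 did not pass. That call was lost without any 1 of the 4 d5 libraries (edgeR adjusted p = 0.0841 to 0.236) and without d9 replicate 2 (0.0568). With acetate at d5, 2 of the 4 receptors had an unadjusted p under 0.05 in edgeR, 2 passed in DESeq2 and 1 in limma-voom. All 4 log2 fold changes there were positive, with a median of 0.97, where 51.3% of all genes were positive. The Ccrl2 mean there went from 9.64 to 24.1 ± 7.71 CPM (SD, n = 2). With acetate at d9 0 of 4 passed in edgeR (0 at an unadjusted p under 0.05, 0 in DESeq2, 0 in limma-voom). Without acetate Ccrl2 rose between days, from 9.64 ± 0.911 (SD, n = 2) to 18.6 ± 7.40 CPM (SD, n = 3; log2 fold change 0.95, edgeR adjusted p = 0.0421). With acetate Ccr4 fell (-0.62, edgeR adjusted p = 0.0431). Both values lay near the threshold, and the number of genes of this list called between days differed between edgeR, DESeq2 and limma-voom. Ccr8, named after its values were seen, had 5 to 8 counts in the d5 libraries, 9 to 12 in d5 acetate and none in any of the 6 libraries of d9. It was among the genes tested only through the d5 groups, so no call between days is drawn for it.

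Among 12 genes of S1P sensing and metabolism, 10 were tested and 0 passed with acetate at d5 or d9 in edgeR (2 and 2 at an unadjusted p under 0.05, 1 and 0 in DESeq2, 0 and 0 in limma-voom). Between days 5 rose and 0 fell without acetate, and 4 rose and 0 fell with acetate, so that 5 and 6 of the 10 did not pass. Of all genes 37.1% and 41.6% were called. S1pr2, a receptor that opposes migration, rose from 42.1 to 92.1 CPM without acetate (log2 fold change 1.13, edgeR adjusted p = 5.57e-05) and also with acetate (0.94, edgeR adjusted p = 1.55e-04). The S1P exporter Spns2 rose (1.54 and 1.51, edgeR adjusted p = 0.00419 and 0.00368), S1pr4 rose without acetate (0.52, edgeR adjusted p = 0.00947) and the S1P-making kinase Sphk1 rose with acetate (1.76, edgeR adjusted p = 0.00158). Sphk2 rose in both (0.53 and 0.93, edgeR adjusted p = 0.0258 and 0.00141), but its exons overlap the abundant Rpl18 on the other strand, as those of Spns2 overlap Mybbp1a. The list's median log2 fold change was 0.52 without acetate and 0.35 with it, against -0.01 for all genes.

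Of 14 tested genes that brake receptor signalling, 6 rose, 2 fell and 6 did not pass in each comparison of days, where 37.1% of all genes passed without acetate and 41.6% with it. With acetate 0 passed at d5 and at d9 in edgeR (4 and 5 at an unadjusted p under 0.05, 1 and 3 in DESeq2, 0 and 0 in limma-voom). Rgs1, which shortens chemokine receptor signals at G proteins, fell (log2 fold change -1.48 without and -1.10 with acetate, edgeR adjusted p = 1.52e-04 and 8.64e-04), and Rgs2 fell without acetate (-1.32, edgeR adjusted p = 4.38e-04). Rgs3 rose without acetate (0.95, edgeR adjusted p = 1.56e-04), and the beta-arrestin gene Arrb2 rose in both (0.63 and 0.90, edgeR adjusted p = 9.19e-04 and 1.12e-04). The Rgs3 means with acetate were 226 CPM at d5 and 312 CPM at d9. Cd69, whose product pulls S1PR1 off the surface, fell between days with acetate (-1.37, edgeR adjusted p = 6.18e-04). At d5 Cd69 stood at 225 ± 16.9 CPM without and 408 ± 9.33 CPM with acetate (SD, n = 2; edgeR adjusted p = 0.0957), and at d9 both means were 158 CPM.

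Of 25 genes that couple the receptors to movement, 5 rose and 4 fell between days without acetate and 8 rose and 3 fell with it, where 37.1% and 41.6% of all genes were called. Rac2, a GTPase of the T cell cytoskeleton, rose from 708 to 1235 CPM without acetate (log2 fold change 0.80, edgeR adjusted p = 9.95e-04). Its means with acetate were 701 CPM at d5 and 1096 CPM at d9. The G protein subunit Gnai3 fell (-1.14 and -1.29, edgeR adjusted p = 0.00339 and 0.00156), as did the integrin-activating GTPase Rap1a (-1.21 and -1.19, edgeR adjusted p = 8.42e-05 and 9.05e-05). Sik1 rose in both (1.38 and 1.74, edgeR adjusted p = 0.00189 and 4.63e-04), and Pik3r5 rose with acetate (0.94, edgeR adjusted p = 0.00162). With acetate 0 of 25 passed at d5 and at d9 in edgeR (7 and 5 at an unadjusted p under 0.05, 3 and 1 in DESeq2, 0 and 0 in limma-voom). The smallest adjusted values were 0.0515 for Rasgrp2 at d5 (log2 fold change 0.75) and 0.0907 for Rap1a at d9 (0.61).

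The list of selectin ligands and the enzymes that build or shed them had 9 tested genes. Selplg, which encodes the P-selectin ligand PSGL-1, rose from 150.4 to 309.7 CPM without acetate (log2 fold change 1.04, edgeR adjusted p = 6.79e-04) and also with it (1.22, edgeR adjusted p = 2.54e-04). The sialyltransferase gene St3gal6 rose as well (1.34 and 1.47, edgeR adjusted p = 1.68e-04 and 1.06e-04), its exons overlapping Dcbld2 on the opposite strand, and the fucosyltransferase gene Fut7 fell with acetate (-1.01, edgeR adjusted p = 0.00136). In all, 5 of 9 rose and 1 fell without acetate, and 6 rose and 2 fell with acetate, beside 37.1% and 41.6% of all genes called. With acetate at d5 the fucosyltransferase gene Fut4 rose from 5.13 to 9.38 CPM (log2 fold change 0.87, edgeR adjusted p = 0.0411), 1 call of 9 where 1.52% of all genes passed. Of the 8 integrin genes Itgb1 rose with acetate at d5 (0.59, edgeR adjusted p = 0.0412). Both calls were lost without any 1 of the 4 d5 libraries (edgeR adjusted p = 0.153 to 0.267 for Fut4 and 0.199 to 0.253 for Itgb1), without d9 replicate 2, d9 replicate 3 or d9 acetate replicate 3 (0.0579 to 0.0711 and 0.0604 to 0.0783) and with library size scaling alone (0.0573 and 0.0563). With limma-voom Fut4 did not pass (adjusted p = 0.0574) and Itgb1 did (0.041). With acetate at d9 edgeR called 0 genes of this list and 0 integrin genes (2 and 3 at an unadjusted p under 0.05, 0 and 1 in DESeq2, 0 and 0 in limma-voom). Between days 3 of the 8 integrin genes rose and 1 fell without acetate, and 2 rose and 0 fell with it, beside 37.1% and 41.6% of all genes called. Itga1, whose product binds collagen on resident T cells, rose between days from 0.308 ± 0.188 (SD, n = 2) to 7.83 ± 0.637 CPM (SD, n = 3; 4.63, edgeR adjusted p = 2.76e-05). With acetate it rose from 0.520 ± 0.215 to 7.60 ± 2.30 CPM (3.87, edgeR adjusted p = 5.02e-05). Its d5 levels were low, so the size of these changes is uncertain. Itgb7 (0.72, edgeR adjusted p = 0.00286) and Itgal (0.60, edgeR adjusted p = 0.0131) rose without acetate, and Itgav with it (0.79, edgeR adjusted p = 0.0115).

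The list around FOXO1 and the KLF factors, which maintain the lymphoid homing programme, had 15 tested genes besides Klf2, of which S1pr4 also stands in the S1P list. With acetate 0 passed at d5 and at d9 in edgeR (3 and 5 at an unadjusted p under 0.05, 1 and 2 in DESeq2, 0 and 0 in limma-voom). As a description, 2 of 15 had a positive log2 fold change at d5, with a median of -0.28, and 12 of 15 at d9, with a median of 0.25. Over all genes 51.3% and 51% were positive, with a median of 0.01 at both days. Between days without acetate 4 rose and 3 fell, and with acetate 6 rose and 1 fell, beside 37.1% and 41.6% of all genes called. Il7r, the interleukin-7 receptor, fell from 9.92 ± 2.17 (SD, n = 2) to 1.01 ± 0.117 CPM (SD, n = 3) without acetate (-3.28, edgeR adjusted p = 2.61e-05) and from 11.4 to 2.66 CPM with acetate (-2.10, edgeR adjusted p = 2.09e-04). Bach2 fell without acetate (-1.61, edgeR adjusted p = 0.00239), whereas with acetate Tcf7 (1.97, edgeR adjusted p = 0.00331), Satb1 (1.48, edgeR adjusted p = 0.00222) and Klf10 (1.19, edgeR adjusted p = 0.00107) rose. Without acetate Tcf7 rose too (1.53, edgeR adjusted p = 0.0117). The means without acetate went from 112 to 181 CPM for Satb1 and from 10.2 to 16.8 CPM for Klf10. So Klf2 and Tcf7 were higher at d9 while Il7r, of the same list, was lower.

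Regulators of effector and resident fate included factors known to act on the members' genes. Tbx21 encodes T-bet, which drives Cxcr3 transcription, and it stood at 95.3 ± 16.3 CPM at d5 and 132 ± 41.9 CPM with acetate (SD, n = 2), and at 36.5 ± 10.0 CPM at d9 and 64.7 ± 8.61 CPM with acetate (SD, n = 3). At d5 the group mean of Cxcr3 was lower with acetate and that of Tbx21 higher, with a Tbx21 difference that did not pass. Between days the means of both genes were lower at d9, without and with acetate. The part of Tbx21 in the Cxcr3 values was not tested. Eomes rose between days (log2 fold change 2.37 without and 3.13 with acetate, edgeR adjusted p = 1.33e-05 and 4.00e-06), as did Prdm1, which encodes Blimp-1 (2.49 and 2.33, edgeR adjusted p = 3.39e-04 and 3.64e-04). Id2 rose without acetate (1.39, edgeR adjusted p = 7.91e-04), Bhlhe40 rose with acetate (1.36, edgeR adjusted p = 9.12e-04) and Id3 fell in both (-1.34 and -1.63, edgeR adjusted p = 1.88e-04 and 5.93e-05). The Id2 mean went from 339.5 to 683.5 CPM with acetate as well. Without acetate the Bhlhe40 mean went from 763 to 1320 CPM. Between days 4 of 14 rose and 3 fell without acetate, and 7 rose and 2 fell with it, beside 37.1% and 41.6% of all genes called. With acetate 0 of 14 passed at d5 and at d9 in edgeR (4 and 7 at an unadjusted p under 0.05, 2 and 3 in DESeq2, 0 and 0 in limma-voom). As a description, 14 of 14 had a positive log2 fold change at d9, with a median of 0.58, where 51% of all genes were positive with a median of 0.01.

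**Figure D4:**
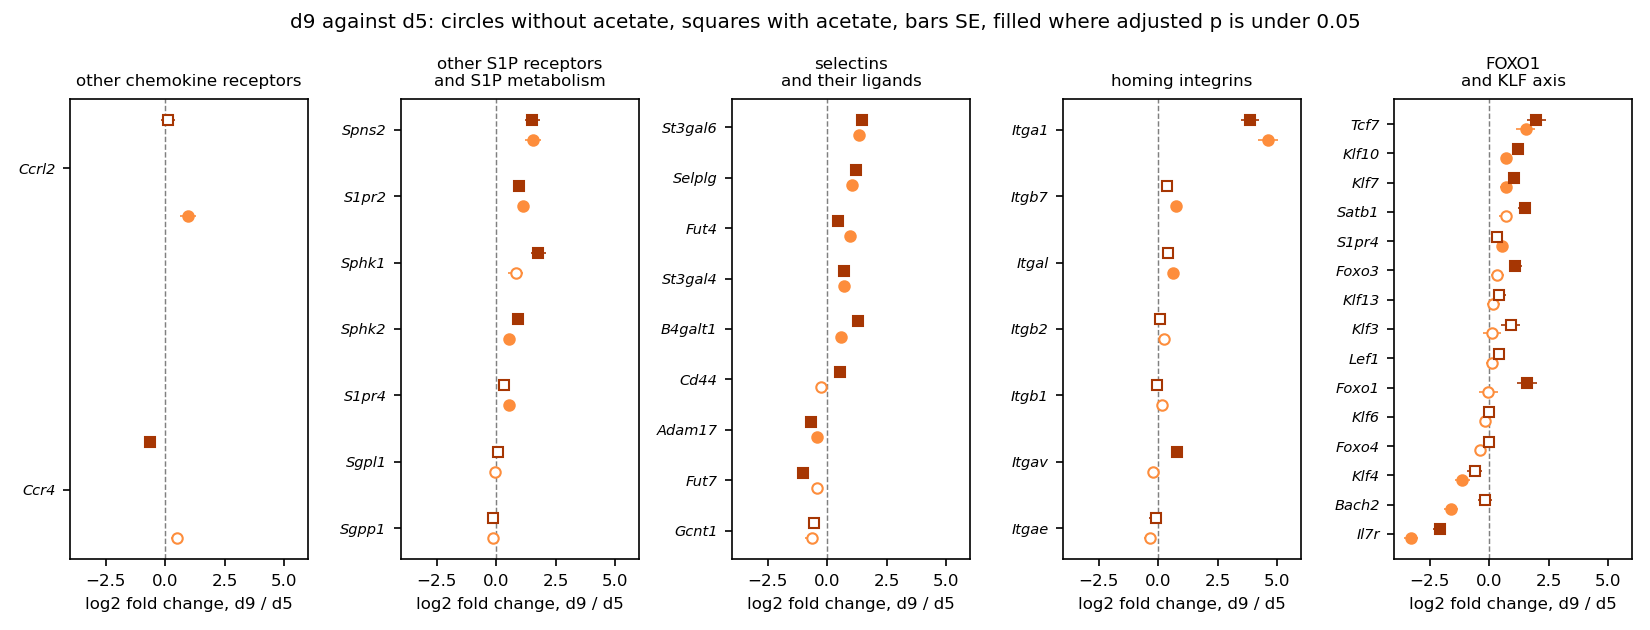
Log2 fold change of d9 against d5, without acetate (circles) and with acetate (squares), for the tested genes of 5 lists with a mean log2 CPM of at least 1; bars are SE and filled points passed an edgeR adjusted p of 0.05. Il7r lies to the left of 0 and Selplg, Tcf7, S1pr2 and Itga1 to the right, filled in both comparisons.

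For the difference between the acetate effects of the days, 0 members and 0 genes of any list passed (edgeR adjusted p), as 0% of all genes did, while 1 member (Cxcr3) and 1015 genes had an unadjusted p under 0.05. DESeq2 called 1 member and 102 genes, and limma-voom 0 of either. Besides Cxcr3, the member values were 1.01 ± 0.55 (SE) for Ccr7, 0.54 for Cxcr4, -0.08 for Cxcr6, -0.53 for Ccr2, -0.03 for S1pr1 and -0.50 for Klf2 on the log2 scale.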

How the data were processed

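RNA of 10 samples was sequenced from TruSeq stranded mRNA libraries, and the authors deposited 1 table of whole-number counts per gene for each sample, unnormalized per the values, which sum to between 16588023 and 24659226 per sample. The submitters' processing notes name STAR, featureCounts, deepTools, DESeq2 and GRCm38, with no versions. Neither the annotation release nor the counter's strand setting is stated in these sources. Of the 53465 identifiers, 53360 matched GENCODE M21 and 105 did not. The counts were normalized by TMM, filtered with filterByExpr and fitted over all 4 groups in edgeR 4.0.16 (R 4.3.3, quasi-likelihood test with robust dispersion, 6 residual degrees of freedom), with Benjamini-Hochberg adjustment over the 13182 genes tested and a threshold of 0.05. Standard errors are the log2 fold change over the square root of F. The alternatives were DESeq2 1.42.0, limma 3.58.1 with voom, other scalings and filters, fits of only the groups compared, a replicate block and left-out libraries. The fitting script was tested on simulated data.

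The members and lists were chosen with earlier results of these data known. From each list the text names up to 4 genes past the threshold per comparison, by smallest p, at a mean log2 CPM of at least 1, or, in a list with no gene past it, the 2 lowest p values, of which a selection is printed, and for each member the 3 most alike genes. Counting error is smallest for Cxcr6 (2604 to 7430 counts) and largest for S1pr1 (11 to 34 counts). Some listed genes are not reported here and enter no list's counts.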

Additional observations from a re-analysis of the deposited data

How the results depend on the processing

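Under 9 other processing settings and the fits without single libraries, the fall of Cxcr3 with acetate at d5 kept its direction, and the calls of Cxcr3, Cxcr6 and Klf2 between days kept theirs. In the acetate comparison at d5, 2 members (Cxcr3 and Ccr2) rather than 1 passed without the filter on low counts, with the DESeq2 Wald test, with only the groups compared and without the pair of d9 libraries that stood apart, and 0 to 2 passed when 1 library was left out. At d9 1 member rather than 0 passed with the DESeq2 Wald test (Ccr7) and without that pair (Ccr2), and 0 passed in every fit without 1 library. For the difference between the days' acetate effects 1 (Cxcr3) rather than 0 passed without the filter, with DESeq2 and without that pair. Between days the 4 calls became 3 to 4 without acetate and 3 to 5 with acetate when 1 library was left out. The sign of S1pr1 was not settled: between days without acetate its log2 fold change was -0.0747 by library size alone and -0.0447 with limma-voom, and with acetate it was 0.0146 with DESeq2 size factors, 0.0348 without the filter, 0.0144 with the DESeq2 Wald test, 0.109 with the replicate block and 0.0066 with only the groups compared. Its difference between the days' acetate effects was 0.0017 with limma-voom. Leaving out 1 library turned the sign in ranges of -0.818 to 0.774 for Cxcr4, -0.262 to 0.480 for Ccr7 and -0.388 to 0.0632 for Klf2 with acetate at d5, of -0.0338 to 0.110 for Cxcr6 with acetate at d9, and of -0.315 to 0.282 and -0.166 to 0.185 for S1pr1 between days without and with acetate. For the difference between the days' acetate effects these ranges were -0.0994 to 1.49 for Cxcr4, -0.175 to 0.0226 for Cxcr6 and -0.260 to 0.305 for S1pr1. Some of these fits rest on fewer samples or genes, and the cause of the changes was not tested. Over all genes, calls with acetate at d5 ran from 62 to 2162 across settings and from 0 to 498 without 1 library, against 201, at d9 from 3 to 337 and from 0 to 18, against 4, and for the difference between the days' acetate effects from 0 to 255 and from 0 to 1, against 0.

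The labels give the groups the same replicate numbers, and no label says that a number marks a shared source. The correlation of deviations of same-numbered libraries was 0.029 at d5 and -0.139, -0.392 and 0.329 for the 3 numbers at d9, so not every pair lay above 0.1. Across days it was 0.163 and 0.113 without acetate and 0.163 and 0.221 with it. Across both day and treatment it was -0.045 and -0.131 between d5 and d9 acetate. Between d5 acetate and d9 it was -0.243 and -0.085. With the replicate block, Cxcr3 with acetate at d5 was at -2.06 (edgeR adjusted p = 0.0236), Ccr2 rose between days with acetate (edgeR adjusted p = 0.0389) and 62 genes were called with acetate at d5. Ccr4, Fut4 and Itgb1 did not pass there (edgeR adjusted p = 0.0715, 0.0750 and 0.0803). S1pr1 has no value under the filter of 2 CPM in 2 samples, which drops it.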
